A study of Glycyrrhiza uralensis with 15 samples.

Results

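Droughted licorice seedlings given both the bacterium G5 and silicon (DBSi) were compared with droughted seedlings given neither (D), in 6 of the 15 libraries of the study, 3 in each group. Glycyrrhiza uralensis, the licorice plant, is a legume of dry regions whose roots are the source of the sweet triterpenoid saponin glycyrrhizin. All libraries came from whole seedlings at 45 days, and full-length cDNA was read on a nanopore instrument. DBSi plants were labelled as droughted and received Bacillus pumilus G5 together with silicon, for which the labels give no moisture and no dose. DB plants received G5 alone and DSi plants silicon alone at 2 mM, both at 35 to 45% of saturation moisture. D plants were kept at the same 35 to 45% with neither addition, and CK plants were watered to 65 to 75%. The DB, DSi and CK libraries share the fit, and DB and DSi are compared with DBSi and D for the named genes. All plants grew in sterilized sand without nutrients, many to a pot, and the labels do not say how many plants or pots stand behind a library.

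Drought closes stomata, slows growth and brings on genes for osmotic protection, many of them through the hormone abscisic acid. Bacillus pumilus is known as a root-colonising bacterium that can promote plant growth. Silicon, taken up by roots and deposited in cell walls, is known to ease water stress in many plants. The study asked how the added agents change the transcripts of droughted seedlings. The deposited tables identify genes by ID and do not pair these IDs with gene names, so genes are described by their level and the size of their change. For the same reason the labelled tissue could not be checked against organ markers.

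A gene was tested when it reached 1 CPM (a count of reads relative to the library's total) in at least 3 of the 15 libraries, which held for 22654 of 30197 genes. Libraries held 3328854, 3506836 and 3222338 reads in DBSi and 3488568, 3039422 and 3291602 reads in D, so that 1 read was worth 0.285 to 0.329 CPM. Differences were taken on the log2(CPM + 1) scale, which understates the change of low genes. A gene is called raised or lowered in DBSi where limma's adjusted p was below 0.05. The replicates resembled each other unevenly. Library D-2 had a Spearman correlation across genes of 0.930 with DBSi-2, against 0.922 with D-1 and 0.919 with D-3, and DBSi-1 had correlations of 0.937 and 0.934 with DBSi-2 and DBSi-3, which correlated at 0.951 with each other. D-2 and DBSi-1 therefore stood apart, and the totals of raised and lowered genes are also given without them. Counts by class, by size, by lack of overlap and of isoforms are not.

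Of the 22654 genes tested, 1036 were raised and 365 lowered in DBSi against D. These are 4.57% and 1.61% of tested genes, 6.18% together, and 73.9% of the called genes were raised. In bulk RNA from whole seedlings, fewer cells of a type and less RNA per cell cannot be told apart. The median difference was 1.58 among raised genes and -1.16 among lowered genes, beside -0.05 over all tested genes. The raised genes had a median level of 48.5 CPM in DBSi and 15.2 CPM in D. The lowered genes had a median level of 17.0 CPM in DBSi and 38.5 CPM in D. The counts depended on single libraries. They were 587 raised and 200 lowered without D-1, 680 and 179 without D-3, 760 and 227 without DBSi-2, and 601 and 130 without DBSi-3. Without D-2, 999 genes were raised and 388 lowered, and without DBSi-1, 865 and 296. With both of these libraries left out, 1125 genes were raised and 664 lowered, so that 62.9% of calls were raised.

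Expression class was set by the mean CPM over all 15 libraries. This mean includes the DBSi libraries, so a large rise lifts a gene's class. With classes by the D libraries alone, 68 raised genes lay from 100 to under 1000 CPM and 90 under 1 CPM. The counts that follow use the mean over all libraries. Both directions were called more often in genes of middle and high abundance, up to 1000 CPM. Under 1 CPM, 17 of 1503 genes were raised and 5 lowered (1.13% and 0.333%). From 1 to under 10 CPM, 245 of 9237 were raised and 64 lowered (2.65% and 0.693%). From 10 to under 100 CPM, 642 of 10129 were raised and 235 lowered (6.34% and 2.32%), and this class held most calls of both kinds. From 100 to under 1000 CPM, 131 of 1701 were raised and 58 lowered (7.70% and 3.41%). The median standard error of the difference was 0.41 in each of the lowest 2 classes, 0.23 from 10 to under 100 CPM and 0.21 from 100 to under 1000 CPM. The precision of the measurement moved with the share of genes called, and its part in these shares was not tested. Among the 84 genes at 1000 CPM or more, 1 was raised and 3 were lowered (1.19% and 3.57%), and their median standard error was 0.30. The share of calls that were raised was 77.3, 79.3, 73.2 and 69.3% from the lowest to the fourth class, and 25% of the 4 calls in the highest.

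**Figure D1:**
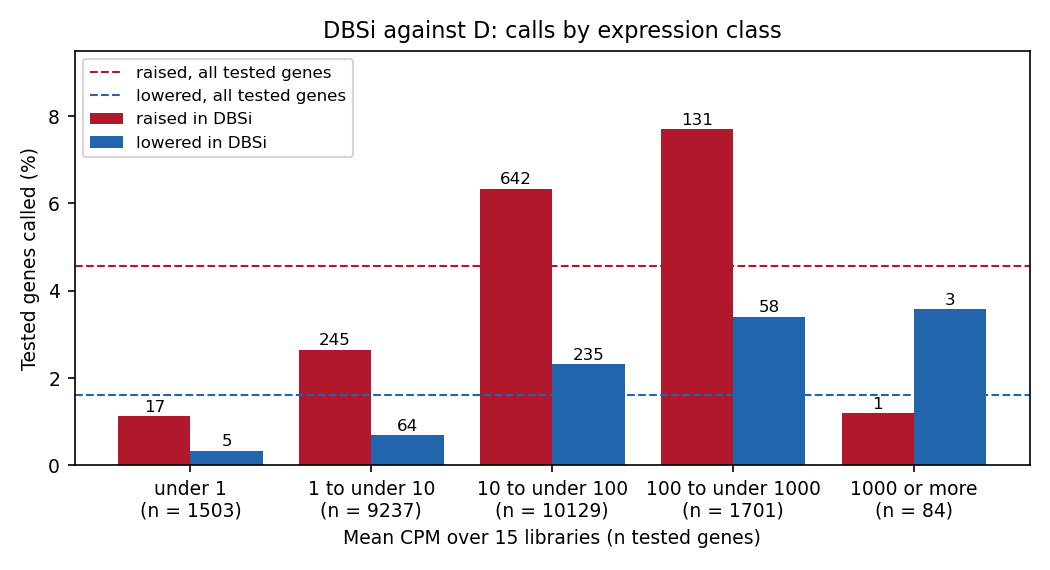
Share of tested genes called in DBSi against D (y axis, percent) by mean CPM over 15 libraries (x axis, number of tested genes under each class). Red bars are raised and blue bars lowered genes, with the number called above each bar, and dashed lines mark the shares over all tested genes (4.57% raised, 1.61% lowered); raised shares climb to 7.70% at 100 to under 1000 CPM and fall to 1.19% at 1000 CPM or more.

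Counts of genes whose 3 DBSi libraries all lay on one side of the 3 D libraries gave another balance. These counts were made on CPM without further scaling and were not repeated under another scaling. All DBSi libraries lay above all D libraries in 2708 genes (12.0% of those tested) and below them in 2657 genes (11.7%). Of the genes lying above, 1035 were called, and of those lying below, 362. The genes lying above had a median absolute log2 difference of 0.93 and those lying below of 0.64. From 1 to under 10 CPM, 837 genes lay above and 832 below, and from 10 to under 100 CPM, 1555 and 1329. The order turned under 1 CPM, with 96 above and 120 below, and at 1000 CPM or more, with 5 and 10. In the class from 100 to under 1000 CPM it also turned, with 215 genes above (12.6%) and 366 below (21.5%). Their median absolute log2 differences were 1.14 and 0.49. The median difference over all 1701 genes of that class was -0.10, beside -0.01 over the class from 10 to under 100 CPM. Of those 366 genes, 58 were called lowered, and of the 215, 131 were called raised.

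Rises were larger than falls. Among raised genes, 182 differed by under 1 on the log2 scale, 520 by 1 to under 2, 224 by 2 to under 3, 94 by 3 to under 4 and 16 by 4 or more. Among lowered genes the numbers were 131, 205, 23, 4 and 2. Differences under 1 made up 17.6% of rises and 35.9% of falls. Of all tested genes with a log2 difference of 2 or more, 371 lay higher in DBSi and 334 of these were called (90.0%). With a log2 difference of -2 or less, 71 lay lower in DBSi and 29 were called (40.8%). The median standard error was 0.46 in the first set and 0.75 in the second. The 2 sets had median levels over 15 libraries of 20.2 and 13.8 CPM. The part of this spread in the lower share of called falls was not tested.

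**Figure D2:**
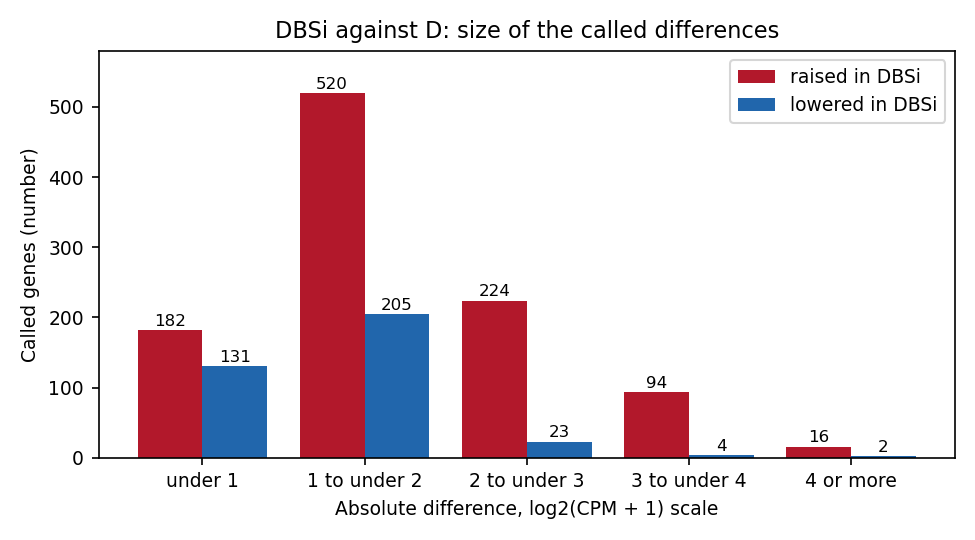
Number of called genes (y axis) by the absolute difference between DBSi and D on the log2(CPM + 1) scale (x axis). Red bars are raised and blue bars lowered genes; 520 rises and 205 falls lie between 1 and 2, while 16 rises and 2 falls reach 4 or more.

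Small called differences belonged almost wholly to the more abundant genes. Rises under 1 numbered 2 below a mean of 10 CPM, 157 from 10 to under 100 CPM and 23 above, and falls under 1 numbered 5, 97 and 29. The standard error, given by class above, moved with this, and its part was not tested. The smallest called rise was 0.74 from 1 to under 10 CPM and 0.51 from 10 to under 100 CPM, and the smallest called falls were -0.82 and -0.50. The 16 rises of 4 or more reached group means of 22.6 to 495 CPM in DBSi, with a median of 121 CPM, against 0 to 22.4 CPM in D, with a median of 3.29 CPM. Of these 16 genes, 11 had a mean from 10 to under 100 CPM over all libraries, 4 had a mean from 1 to under 10 CPM and 1 had a mean of 100 CPM or more. The 6 falls of 3 or more had group means of 1.26 to 80.1 CPM in DBSi, against 24.0 to 773 CPM in D.

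One rise and one fall were named in each of 2 classes by rule, as the called genes with the largest differences and no overlap between groups. Glyur000090s00011385, the largest rise at 100 CPM or more, had 442, 430.3 and 612 CPM in DBSi libraries, against 20.1, 22.0 and 25.2 CPM in D libraries. The 3 D libraries lay close together and far below every DBSi library. It averaged 495 ± 102 CPM in DBSi and 22.4 ± 2.6 CPM in D (SD, n = 3 each), 22.1-fold higher in DBSi. The log2 difference was 4.39 (SE 0.46, limma adjusted p = 0.000104). Glyur000010s00000926, the largest rise from 10 to under 100 CPM, had 117, 190 and 191 CPM in DBSi libraries, against 1.43, 2.30 and 3.95 CPM in D libraries. DBSi-1 was the lowest DBSi library and still lay far above all D libraries, whose values came from 25 reads in all. Its log2 difference was 5.58 (SE 0.58, limma adjusted p = 0.000104), the largest of any called gene.

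Glyur000008s00001267, the largest fall at 100 CPM or more, had 91.6, 68.7 and 80.1 CPM in DBSi libraries, against 764, 567 and 987 CPM in D libraries. Every DBSi library lay far below the lowest D library. It averaged 80.1 ± 11 CPM in DBSi and 773 ± 210 CPM in D (SD, n = 3 each), 9.64-fold lower in DBSi, with a log2 difference of -3.23 (SE 0.27, limma adjusted p = 3.15e-05). Glyur000690s00025177, the largest fall from 10 to under 100 CPM, had 0.601, 2.57 and 0.621 CPM in DBSi libraries, against 41.0, 30.3 and 40.1 CPM in D libraries. Its DBSi values rest on 13 reads and its D values on 367. The log2 difference was -4.17 (SE 0.51, limma adjusted p = 0.000243). All 4 genes passed the threshold in every alternative tried and with any 1 library left out.

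**Figure D3:**
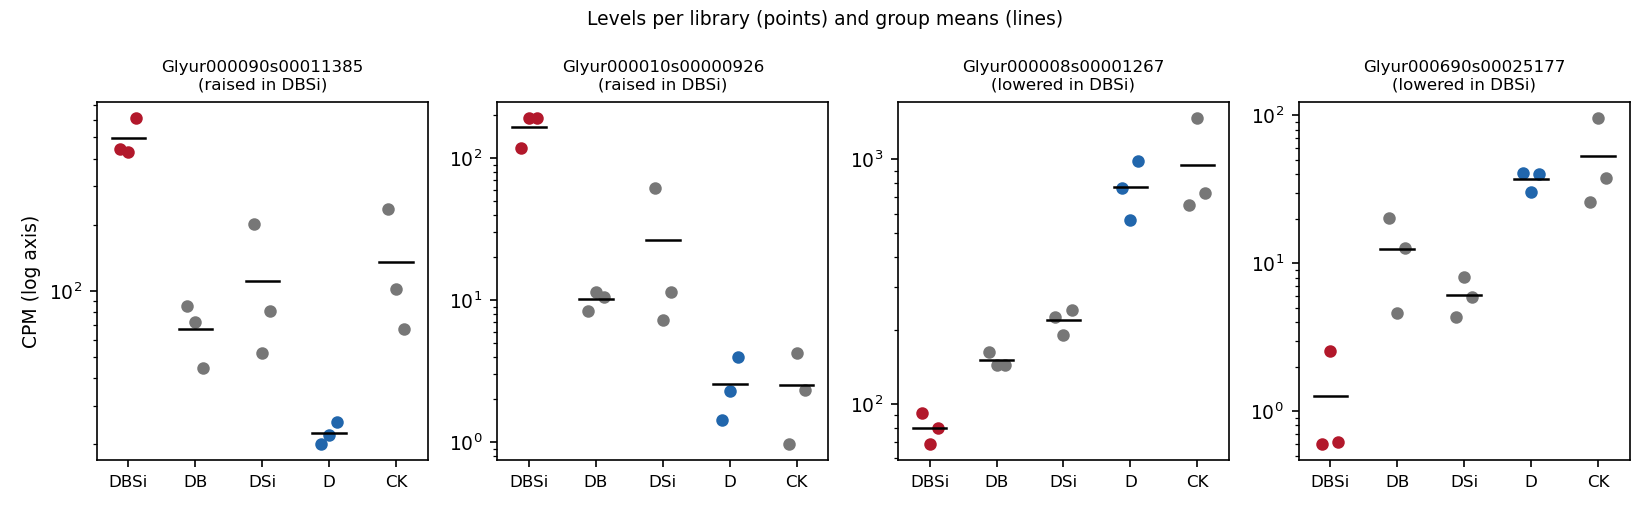
Levels of the 4 named genes (y axis, CPM on a log axis that differs between panels) in each library of the 5 groups (x axis), with points for libraries and lines for group means. DBSi is drawn in red and D in blue; in each panel the 3 DBSi libraries lie outside the range of the 3 D libraries.

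In plants given one agent, these genes stood at other levels. Their comparisons use the same DBSi or D libraries, so they are not independent of the values above. Tests of DBSi against DB and DSi called 2.45% and 1.91% of tested genes, and tests of DB and DSi against D called 0.490% and 0.0265%. Against D, Glyur000008s00001267 was itself lowered in DB by a log2 difference of -2.31 (SE 0.27, limma adjusted p = 0.00258) and in DSi by -1.78 (SE 0.27, limma adjusted p = 0.0472). The other 3 of these 4 genes were not called against D in either group, with limma adjusted p from 0.131 to 0.255. Their differences from D nevertheless had the same direction as in DBSi. In DB and DSi, the log2 differences were 1.49 and 2.04 for Glyur000090s00011385 (SE 0.46). They were 1.69 and 2.44 for Glyur000010s00000926 (SE 0.58), and -1.68 and -2.44 for Glyur000690s00025177 (SE 0.51). Lack of a call does not show that these genes were unchanged. Glyur000090s00011385 averaged 67.0 ± 21 CPM in DB, 111 ± 79 in DSi and 135 ± 89 CPM in CK (SD, n = 3 each). DSi-1, at 201 CPM, was the highest of the DB and DSi libraries. It was higher in DBSi than in DB by a log2 difference of 2.90 (SE 0.46, limma adjusted p = 0.00304) and than in DSi by 2.35 (SE 0.46, limma adjusted p = 0.0158). Glyur000010s00000926 had 61.3, 7.20 and 11.4 CPM in the DSi libraries and 8.37, 11.4 and 10.6 CPM in the DB libraries. It was higher in DBSi by a log2 difference of 3.89 than in DB (limma adjusted p = 0.0023) and by 3.14 than in DSi (limma adjusted p = 0.0118). Glyur000008s00001267 averaged 151 ± 10 CPM in DB and 220 ± 26 CPM in DSi (SD, n = 3 each). It was lower in DBSi than in DSi by a log2 difference of -1.45 (SE 0.27, limma adjusted p = 0.0122), while the difference from DB was -0.91 (SE 0.27, limma adjusted p = 0.12). Glyur000690s00025177 had 20.3, 4.60 and 12.7 CPM in the DB libraries and 4.35, 8.10 and 5.94 CPM in the DSi libraries. Its difference was -2.49 from DB (limma adjusted p = 0.016) and -1.73 from DSi (SE 0.51, limma adjusted p = 0.121).

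The 4 called genes at 1000 CPM or more were named because they were few, after their values were seen. Glyur000001s00000053, the only rise, had 1327, 1396 and 1511 CPM in DBSi libraries, against 433, 518 and 512 CPM in D libraries. The groups were well apart, with a 2.89-fold higher mean in DBSi and a log2 difference of 1.53 (SE 0.33, limma adjusted p = 0.0119). It averaged 1522 ± 418 CPM in DB and 900.1 ± 205 CPM in DSi (SD, n = 3 each). It was also raised in DB against D (log2 difference 1.61, SE 0.33, limma adjusted p = 0.0457), and its difference between DBSi and DB was -0.08 (SE 0.33, limma adjusted p = 0.967). Its call against D was lost without D-1 or DBSi-3.

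Among the 3 abundant falls, Glyur001069s00022473 had 1053, 846 and 1091 CPM in DBSi libraries, against 2757, 2295 and 3230.0 CPM in D libraries (log2 difference -1.46, SE 0.24, limma adjusted p = 0.002). Glyur000574s00030981 had 795, 1364 and 672 CPM in DBSi libraries, against 2567, 2587 and 2615 CPM in D libraries (log2 difference -1.52, SE 0.26, limma adjusted p = 0.0027). Both were lower in all 3 DBSi libraries and kept their call with any 1 library left out. Glyur003114s00040695 had 789, 547 and 285 CPM in DBSi libraries, against 1943, 1065 and 1387 CPM in D libraries (log2 difference -1.51, SE 0.38, limma adjusted p = 0.0316). Its call was lost in edgeR, with the 6 libraries alone, with a replicate block, and without D-1, D-3, DBSi-2 or DBSi-3.

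Together the raised genes took up a larger part of the DBSi libraries. As they were chosen for this difference, the shares describe its weight and test nothing. They held 10.8, 10.03 and 11.3% of reads in DBSi libraries, against 3.0, 3.58 and 3.31% in D libraries. The lowered genes held 1.67, 1.69 and 1.40% of reads in DBSi libraries, against 3.67, 3.57 and 3.70% in D libraries. Choosing genes for this difference also favours shares between those of DBSi and D in the other groups. There the raised genes held 5.10, 5.31 and 4.86% in DB, 6.28, 4.50 and 3.92% in DSi and 4.04, 4.02 and 3.87% in CK. DSi-1 was the highest of these 9 libraries. The lowered genes held 2.14 to 2.52% in DB, 2.31 to 2.76% in DSi and 3.06 to 3.52% in CK. The median level of raised genes was 48.5 CPM in DBSi, 22.1 in DB, 23.6 in DSi, 15.2 in D and 18.5 CPM in CK. That of lowered genes was 17.0 CPM in DBSi, 24.4 in DB, 26.5 in DSi, 38.5 in D and 34.4 CPM in CK.

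**Figure D4:**
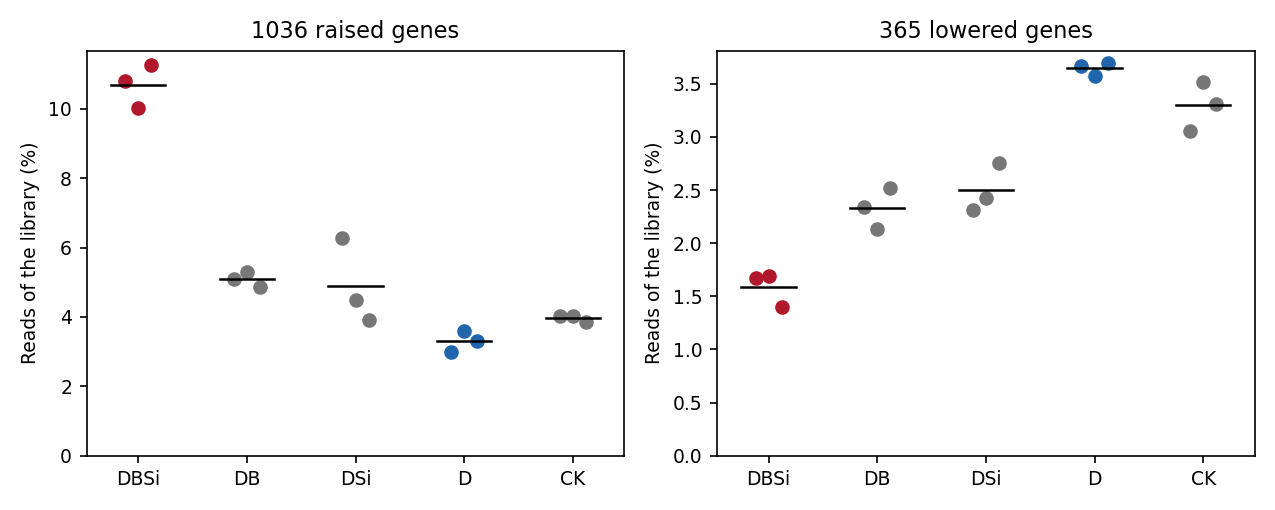
Share of each library's reads (y axes, percent, from 0) held by the 1036 raised genes and by the 365 lowered genes in the 5 groups (x axes), with points for libraries and lines for group means. Raised genes hold 10.03 to 11.3% in DBSi and 3.0 to 3.58% in D; lowered genes hold 1.40 to 1.69% in DBSi and 3.57 to 3.70% in D.

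The gain was spread over many genes. The 10 raised genes with the largest CPM differences held 12.2% of the summed rise, and the first 50 held 34.9%. The 10 lowered genes with the largest differences held 36.1% of the summed fall, and the first 50 held 62.7%. The raised list held 1036 genes and the lowered list 365, so equal numbers of genes are unequal fractions of these lists. Genes with a mean of 100 CPM or more were 12.7% of raised genes and gave 52.0% of the summed rise. They were 16.7% of lowered genes and gave 65.7% of the summed fall.

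Few of the called genes, and few of all tested genes, switched between no reads and expression. Of the 1036 raised genes, 2 had no read in any D library, and 37 more had 1 to 3 reads over the 3 D libraries. Of the 365 lowered genes, 3 had no read in any DBSi library, and 5 more had 1 to 3 reads. Over all 22654 tested genes, 42 had reads in DBSi and none in any D library, and 91 had reads in D and none in any DBSi library. Genes with 1 to 3 reads were not counted over all tested genes. The 5 called genes at 0 were named because they were few, after their values were seen. Glyur001988s00038654 had 27.3, 17.4 and 36.3 CPM in DBSi libraries, against 0 CPM in all D libraries. With D set to 3 reads per library (0.919 CPM), it was 29.4-fold higher in DBSi by the observed mean (limma adjusted p = 0.0198). It was also at 0 in CK-1, DB-1 and DSi-3 and at 28.6 CPM in DSi-1, so libraries within those groups differed widely. ONT.10106 had 1.5, 4.85 and 0.621 CPM in DBSi libraries, from 24 reads (limma adjusted p = 0.0467). Its DBSi mean was 2.53-fold higher than D set in this way, but DBSi-3 lay below that level. IDs beginning with ONT differ in form from the Glyur IDs of most genes, and the deposited tables do not describe them.

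The 3 genes at 0 in DBSi were low in D as well. ONT.4218 had 1.15, 2.96 and 1.52 CPM in D libraries from 18 reads. With DBSi set to 3 reads per library (0.896 CPM), it was 2.09-fold lower in DBSi (limma adjusted p = 0.00476). It was also at 0 in all DB and DSi libraries and in CK-1 and CK-2. With DBSi set in the same way, ONT.20286 was 2.41-fold lower and Glyur000951s00029033 1.28-fold lower, from 21 and 11 reads in D (limma adjusted p = 0.0106 and 0.0446). A count of 0 in a library allows a level of up to the worth of 3 reads, so expression at about 0.9 CPM or less could be missed at this depth. These ratios cover counting error only, and only in the group at 0, because the mean of the other group was taken as observed. Amplified reads that carry no molecular identifier do not each stand for a separate molecule, which the ratios do not cover.

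The breadth of the libraries did not differ detectably. At an equal depth of 3039422 reads, 24392, 23526 and 23939 genes would have been detected in DBSi libraries, against 24147, 23722 and 24678 in D libraries. The groups overlapped, with means of 23952 ± 433 genes in DBSi and 24182 ± 479 genes in D (SD, n = 3 each; exact permutation test, two-sided p = 0.6). The 100 most abundant genes of a library held 25.5, 25.9 and 22.5% of reads in DBSi libraries, against 29.9, 25.7 and 25.5% in D libraries. The means were 24.6 ± 1.9% in DBSi and 27.0 ± 2.5% in D (SD, n = 3 each; exact permutation test, two-sided p = 0.4). With 3 libraries against 3, the smallest p this test can give is 0.1. The spread within groups was alike, with a median SD on the log2 scale of 0.32 in DBSi and 0.33 in D over all tested genes.

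Many gene calls depended on having all libraries, the falls more often than the rises. Of the 1036 raised genes, 508 (49.0%) passed the threshold with each of the 6 DBSi and D libraries left out in turn. Of the 365 lowered genes, 101 (27.7%) did so. This share was 38.4% of raised genes from 1 to under 10 CPM, 51.1% from 10 to under 100 CPM and 62.6% from 100 to under 1000 CPM. For lowered genes it was 9.38, 30.2 and 34.5% in the same classes. Of the 999 raised and 388 lowered genes called without D-2, 834 and 235 were among the genes called with all libraries. edgeR's quasi-likelihood test on whole reads called 981 of the 1036 raised and 280 of the 365 lowered genes in the same direction, where it called 4.85% of tested genes raised and 1.31% lowered. DESeq2 called 1007 and 339 of them, where it called 5.88% of tested genes raised and 2.40% lowered. In all, 502 raised and 99 lowered genes were called by all 3 tools and in all 6 fits with a library left out. The 502 rises had a median log2 difference of 2.04 and median levels of 71.2 CPM in DBSi and 17.4 CPM in D. The 99 falls had a median absolute log2 difference of 1.37 and median levels of 24.2 CPM in DBSi and 71.1 CPM in D. No called gene was called in the other direction in any alternative (0 raised and 0 lowered). All alternatives reused these libraries, and the groups did not overlap in 1035 raised and 362 lowered genes. A reversed call was therefore hardly possible, and its absence says little.

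**Figure D5:**
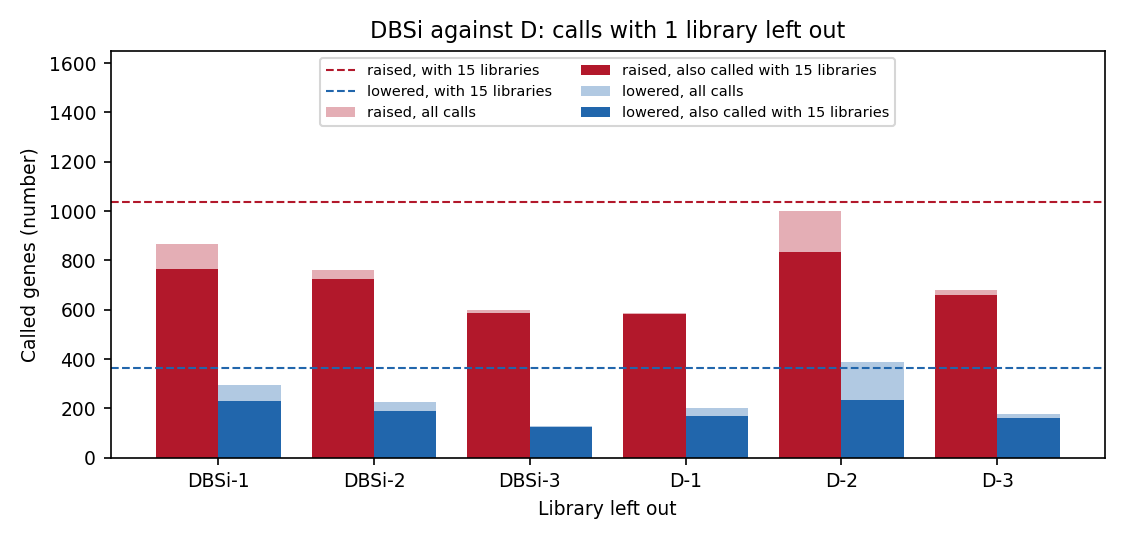
Number of called genes (y axis) with each of the 6 DBSi and D libraries left out (x axis), raised in red and lowered in blue. Full bars are genes also called with all 15 libraries, pale tops are further genes, and dashed lines mark the 1036 raised and 365 lowered genes called with all libraries; the fewest rises (587) come without D-1 and the fewest falls (130) without DBSi-3.

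For single libraries, D-2 was the D library nearest to DBSi in 50.3% of raised genes, D-3 in 34.1% and D-1 in 15.6%. For lowered genes the shares were 37.0, 30.4 and 32.6%. DBSi-1 was the DBSi library nearest to D in 40.3% of raised and 44.4% of lowered genes, and DBSi-3 in 21.6% and 17.3%.

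Full-length reads also gave values per isoform. Of 35504 isoforms tested by the same rule, 1273 were raised (3.59%) and 395 lowered (1.11%) in DBSi, 4.70% together. Their median differences were 1.92 and -1.44, beside -0.03 over all tested isoforms. Differences of 4 or more were reached by 50 raised and 10 lowered isoforms, beside 16 and 2 genes. With the 6 libraries alone in the fit, 805 isoforms were raised and 163 lowered, and without DBSi-3, 730 and 157. Most called isoforms carried ONT IDs, 862 of the 1273 raised and 270 of the 395 lowered, and ONT IDs were 23350 of the 35504 tested. The tables do not pair these isoforms with Glyur genes, so they could be assigned to a gene only where the ID itself names the locus.

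By limma, called isoforms that share a locus ID moved in the same direction. Isoforms of their own ID held 42.1% of the reads of raised Glyur genes in DBSi and 38.4% in D. For lowered Glyur genes these shares were 50.4% and 48.3%. Isoforms of one gene that carry different IDs could not be compared. By ID, 5138 loci had 2 or more tested isoforms, and 131 loci had 2 or more raised and 18 had 2 or more lowered isoforms. No locus had both a raised and a lowered isoform (0 by limma and 0 by edgeR), while DESeq2 gave 6 such loci and an unadjusted limma p under 0.05 gave 63. edgeR called 2.70% of isoforms raised and 0.732% lowered, and DESeq2 4.48% and 1.79%. Of the 637 raised genes whose ID appears among tested isoforms, 451 had an isoform of that ID raised as well. Of the 231 lowered genes, 127 had one lowered. All reads lay on isoforms of the gene's own ID in 277 of 953 raised and 104 of 342 lowered Glyur genes. In those genes, isoform and gene values come from the same reads, so agreement was largely fixed in advance. A further 43 raised and 15 lowered isoforms belonged to genes that were not themselves called. Glyur000690s00025177 had all its DBSi and D reads on the isoform of its own ID. The isoform's log2 difference therefore repeats that of the gene (-4.17, SE 0.52, limma adjusted p = 0.000622). The isoform of Glyur000090s00011385 with its own ID held 0.677% of the gene's reads in these libraries, at 2.70, 4.56 and 2.48 CPM in DBSi and 0, 0.329 and 0.304 CPM in D (limma adjusted p = 0.0724).

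Loci with ONT IDs were called less often than genes with Glyur IDs, at 3.59% raised and 0.995% lowered of 2312, against 4.68% and 1.68% of 20342. Their median level was 2.76 CPM, against 13.0 CPM. At 10 CPM or more, 30 of 377 ONT loci were raised and 6 lowered (7.96% and 1.59%), against 744 and 290 of 11537 Glyur genes (6.45% and 2.51%). These shares are descriptions, and the differences between ID types were not tested.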

How the data were processed

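The authors deposited CPM values per gene and per isoform, 1 column a library, per the file headers. The submitters' processing notes name minimap2. The sources used here give no version, counting tool, genome build or filter, and do not say how reads of near-identical genes were split, so values of close copies are uncertain. All deposited CPM values were whole multiples of 1 read within 0.01, and reads were recovered from them (100% whole, 3039422 to 4043823 per library). Groups came from the sample titles. No label ties replicates to separate pots or plants, so p-values reflect the spread among these libraries, part of which may be technical.

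limma 3.58.1 in R 4.3.3 was fitted to log2(CPM + 1) of all 15 libraries with group as the only factor, an intensity trend and two-sided Benjamini-Hochberg adjustment over all features tested. edgeR 4.0.16 and DESeq2 1.42.0 were run on recovered reads as alternatives. Detection was rarefied to the smallest library. Other alternatives were pseudocounts of 0.5 and 2, other filters and scalings, library weights, a replicate block and each library left out. Genes were named as the largest called rise and fall without overlap at 100 CPM or more and from 10 to under 100 CPM, plus any group of 5 or fewer. The members and classes were chosen with earlier results of these data known.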

Additional observations from a re-analysis of the deposited data

How the results depend on the processing

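Counts of raised genes stayed within 1.5 times the 1036 reported in all alternatives other than single libraries left out (587 to 1061 over 15 fits). Lowered genes, 365 as reported, numbered 696 with library weights, 196 with the 6 DBSi and D libraries alone, 234 with a minimum log2 difference of 1, 664 without D-2 and DBSi-1 together (chosen after seeing the data) and 130 to 400 with 1 library left out. Raised isoforms, 1273 as reported, numbered 805 with the 6 libraries alone and 717 to 1294 with 1 library left out. Lowered isoforms, 395 as reported, numbered 163 with the 6 libraries alone, 260 in edgeR, 634 in DESeq2 and 157 to 411 with 1 library left out. The causes were not tested. The share of gene calls that were raised, 73.9% as reported, was 62.9% without D-2 and DBSi-1 together, 66.0% with library weights, 69.9% with quantile normalization, 77.1% with median-of-ratios scaling, 79.8% with the 6 libraries alone and 82.2% without DBSi-3. The median of all genes moved by less than 0.1 on the log2 scale under either scaling.

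With the replicate block, 902 genes were raised and 284 lowered, and 1105 and 310 isoforms. Deviations of same-numbered DBSi and D libraries correlated at 0.23, 0.33 and -0.06, and those of differently numbered ones at -0.41 to 0.29. Of the 3 DBSi libraries, 1 correlated best with the D library of its own number. With 1 same-numbered pair below 0.1, the numbers were not taken to pair the samples, and whether they mark a shared batch was not settled.

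With classes set by the 6 libraries or by D alone, 4 or 90 raised genes fell under 1 CPM (17 as reported), 2 or 0 lowered genes did (5), and 2 or 0 raised genes reached 1000 CPM (1). With classes by D alone, 68 raised genes lay from 100 to under 1000 CPM (131). Class by D alone favours low classes for rises by its construction. The mean over all 15 libraries includes DBSi and so favours higher classes for rises. The difference in detected genes, -230, ran from -460.2 to 17.8 with 1 library left out, and that in the share of the 100 most abundant genes, -2.39 points, from -3.14 to -0.957. Depth limits the lowest class, where 3 reads are worth about 0.9 CPM.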
